A study of Mus musculus with 89 samples.

Results

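Mitochondrial ribosomal proteins are the nuclear-encoded protein subunits of the ribosome that works inside mitochondria. Their genes were taken here as the probe sets whose single gene symbol starts with Mrpl or Mrps followed by a digit, and 76 of the 22206 probe sets of the array met this rule. Of these, 48 are named for the large subunit (Mrpl) and 28 for the small subunit (Mrps), and they lie on 17 chromosomes. The reference gene table held 78 coding genes with such symbols; the remaining ones, Mrps6 and Mrpl53, matched no probe set by symbol and were not analysed here. Mrps6 lies on the triplicated part of mouse chromosome 16 (Mmu16), so Mrpl39 was the 1 measured subunit on that segment, and 75 lay outside it.

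The data were log2 probe set signals of the forebrain at embryonic day 18.5, with 1 Clariom S array per embryo, from 23 Ts65Dn and 18 EupTs65Dn embryos of 6 litters and from 24 Ts66Yah and 24 EupTs66Yah embryos of 6 other litters. Ts65Dn embryos carried an extra chromosome that joins distal Mmu16 to the proximal end of mouse chromosome 17 (Mmu17), and Ts66Yah embryos carried one with the Mmu16 part alone. EupTs65Dn and EupTs66Yah embryos were the euploid littermates, all untreated and on a mixed B6 and C3H background. The extra chromosome came from the dam in the Ts65Dn colony, and a dam's trisomy is thus shared by the embryos of both genotypes in a litter. The extra segment holds many genes besides those described here. How many embryos and litters were measured sets the precision of the values.

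The mitochondrial ribosome translates the few proteins that mitochondrial DNA encodes, all of them subunits of the respiratory chain or of ATP synthase. Its ribosomal RNAs come from mitochondrial DNA, while every protein subunit is made in the cytosol and imported, so both genomes have to supply matching parts. Some subunits have a counterpart in bacterial ribosomes and others occur in mitochondrial ribosomes alone, and inherited loss of single subunits causes respiratory chain deficiency, often with brain disease.

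Several arrays stood apart, and their effect is given beside the results. EupTs66Yah replicate 16 had a standard deviation over all probe sets of 1.13, against 2.23 to 2.53 in the other arrays, and it was left out, which leaves 23 EupTs66Yah arrays; values with it are given where they differ. A further 5 EupTs66Yah arrays, replicates 9, 14, 17, 21 and 22, had a narrower spread than every Ts66Yah array. Their standard deviations were 2.23 to 2.27, against 2.30 at the lowest in Ts66Yah, and they were kept. Array means were 5.26 to 5.33 in the Ts65Dn colony and 6.35 to 6.41 in the Ts66Yah colony, so levels were compared only within a colony. By the mean of the 120 probe sets of the triplicated Mmu16 segment other than Mrpl39, 4 arrays lay nearer to the other genotype of their colony: Ts65Dn replicate 18, Ts66Yah replicates 13 and 24, and EupTs66Yah replicate 24. In 17 arrays the Y-linked genes did not match the labelled sex, and sex entered no main comparison. The mean of the cortical excitatory neuron list ranged from 8.47 to 8.88 in Ts65Dn and from 8.58 to 8.78 in EupTs65Dn embryos, and from 9.19 to 9.54 in Ts66Yah and from 9.10 to 9.57 in EupTs66Yah embryos. Signals of different probe sets are not on one scale, so these levels do not test the forebrain label.

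Mrpl39 encodes a large-subunit protein that has no counterpart in bacterial ribosomes. It lies on Mmu16 inside the triplicated segment, next to Jam2, Atp5j and Gabpa. Its promoter is printed because it is the subunit with the extra gene copy and holds a match to a palindrome-like motif of NRF1, a transcription factor of nuclear genes for mitochondrial proteins. The RefSeq promoter (GRCm38.p6, chr16:84735195-84735494, - strand, 250 bases before to 50 after the start) is given from 5′ to 3′, with the overlapping matches to GCATGCGC on both strands in capitals.
Mrpl39 promoter: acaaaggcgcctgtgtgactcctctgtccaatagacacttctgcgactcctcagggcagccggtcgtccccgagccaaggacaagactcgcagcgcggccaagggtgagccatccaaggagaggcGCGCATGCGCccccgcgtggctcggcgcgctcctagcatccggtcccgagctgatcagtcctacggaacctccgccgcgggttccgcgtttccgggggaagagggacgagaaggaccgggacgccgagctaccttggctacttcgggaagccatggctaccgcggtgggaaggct

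The Mrpl39 signal was higher in both trisomic genotypes than in their euploid littermates. In Ts65Dn embryos it was 5.99 at the lowest, 6.65 at the median and 6.85 at the highest, against 5.68, 6.14 and 6.52 in EupTs65Dn embryos. In Ts66Yah embryos it was 6.50 at the lowest, 7.39 at the median and 7.80 at the highest, against 6.33, 7.00 and 7.43 in EupTs66Yah embryos. The groups overlapped in both colonies, with 16 of 23 Ts65Dn embryos above every EupTs65Dn embryo and 11 of 24 Ts66Yah embryos above every EupTs66Yah embryo. Relative to the euploid median, 22 of 23 Ts65Dn and 23 of 24 Ts66Yah embryos were higher.

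The mean was 6.57 ± 0.22 in Ts65Dn and 6.11 ± 0.22 in EupTs65Dn embryos (SD, n = 23 and 18), a log2 difference of 0.46 (SE 0.07, 1.38-fold, limma, Benjamini-Hochberg adjusted p over every probe set = 2.5e-05). It was 7.35 ± 0.25 in Ts66Yah and 6.97 ± 0.28 in EupTs66Yah embryos (SD, n = 24 and 23), a log2 difference of 0.38 (SE 0.08, 1.30-fold, limma adjusted p = 0.0047). Mrpl39 rose in each model, and the difference between the models' effects, Ts65Dn minus Ts66Yah, was 0.09 (95% interval -0.12 to 0.29, limma adjusted p = 0.905). In bulk tissue, a change in the share of cells that express a gene cannot be told apart from a change in RNA per cell.

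Mrpl39 was higher in the trisomic littermates in all 6 litters of each colony. Differences of litter means, trisomic minus euploid, were 0.25 to 0.62 in the Ts65Dn colony and 0.03 to 0.63 in the Ts66Yah colony. The largest of the Ts66Yah colony, 0.63, came from litter WT18, and without that litter the Ts66Yah difference was 0.31 (SE 0.08, limma adjusted p = 0.119). The lowest EupTs66Yah values in the fits, 6.38 and 6.33, were those of replicates 14 and 17 of that litter, both narrower arrays. Whether array spread had a part in the litter's difference was not tested. With EupTs66Yah replicate 16 put back, where Mrpl39 read 3.58, the Ts66Yah difference was 0.52 with an SE of 0.16 (limma adjusted p = 0.253). These 2 alternatives lost the Ts66Yah call, and 16 kept it, among them the fit without the narrower arrays. Without the 4 arrays nearer to the other genotype the differences were 0.48 in Ts65Dn (limma adjusted p = 1.17e-05) and 0.44 in Ts66Yah (limma adjusted p = 6.8e-05). In those 4 arrays Mrpl39 read 6.25 in Ts65Dn replicate 18, 7.19 and 6.50 in Ts66Yah replicates 13 and 24, and 7.30 in EupTs66Yah replicate 24. The value of Ts66Yah replicate 24 was the lowest of its group.

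**Figure D1:**
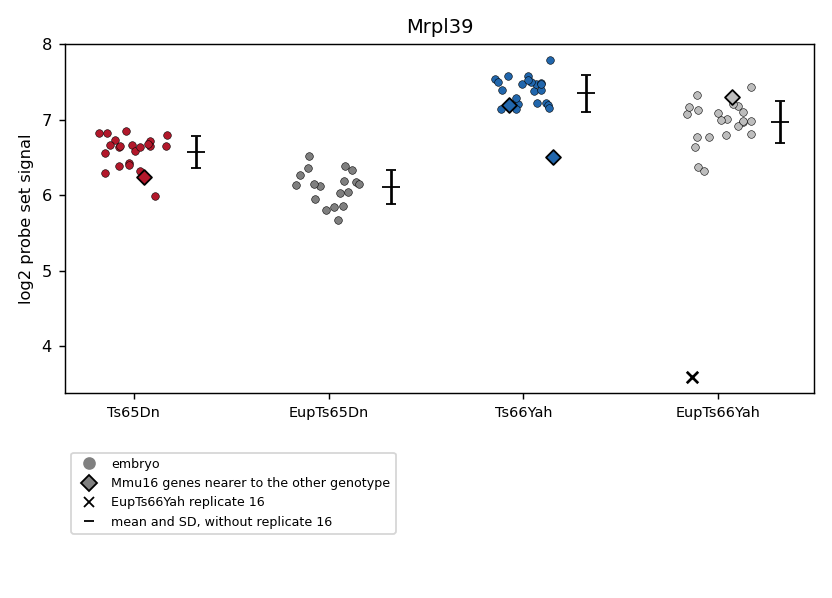
Log2 probe set signal of Mrpl39 (vertical axis) in each embryo of the 4 groups, with the mean and SD beside each group. Diamonds mark the 4 arrays nearer to the other genotype on the remaining Mmu16 genes, and the cross marks EupTs66Yah replicate 16 at 3.58, which is left out of the means; Ts65Dn embryos centre on 6.57 against 6.11 in EupTs65Dn, and Ts66Yah embryos on 7.35 against 6.97 in EupTs66Yah.

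Set against the other subunits of the same embryo, Mrpl39 was still higher in both trisomic genotypes. Fewer trisomic embryos lay above every euploid embryo than by its signal alone. Mrpl39 minus the mean of the 75 other subunits was -0.61 ± 0.20 in Ts65Dn and -1.05 ± 0.21 in EupTs65Dn embryos (SD, n = 23 and 18), and 13 of 23 Ts65Dn embryos lay above every EupTs65Dn embryo. It was -0.67 ± 0.26 in Ts66Yah and -1.01 ± 0.25 in EupTs66Yah embryos (SD, n = 24 and 23), and 10 of 24 Ts66Yah embryos lay above every EupTs66Yah embryo. The sign of this measure carries no meaning, because signals of different probe sets are not on one scale. The mean of the 75 other subunits itself was 7.18 ± 0.07 in Ts65Dn and 7.16 ± 0.07 in EupTs65Dn embryos, a difference of 0.02 with an SE of 0.02. It was 8.02 ± 0.10 in Ts66Yah and 7.98 ± 0.06 in EupTs66Yah embryos, a difference of 0.04 with an SE of 0.02. Both differences of the subunit mean were small beside those of Mrpl39.

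The neighbours of Mrpl39 on the segment rose as well. Jam2, a junctional adhesion molecule, differed by 0.43 in Ts65Dn (limma adjusted p = 3.01e-07) and by 0.43 in Ts66Yah (limma adjusted p = 8.44e-06). Atp5j, a peripheral stalk subunit of ATP synthase, differed by 0.58 in Ts65Dn (limma adjusted p = 7.62e-09) and by 0.51 in Ts66Yah (limma adjusted p = 1.72e-07). The Mrpl39 difference lay between these in Ts65Dn and below both in Ts66Yah. Gabpa, described further below, differed by 0.52 in Ts65Dn and by 0.38 in Ts66Yah, against 0.46 and 0.38 for Mrpl39. These gaps between genes were not tested.

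Outside the triplicated segment, 0 of 75 subunits passed the threshold in Ts65Dn and 1 of 75 in Ts66Yah, by limma at an adjusted p under 0.1. Counting Mrpl39, 1 of 76 subunits was called in Ts65Dn, where 0.491% of all probe sets were called, and 2 of 76 in Ts66Yah, where 0.932% were called. The Ts66Yah count was 0 with EupTs66Yah replicate 16 put back, 0 without litter WT18 and 3, Mrpl52 among them, without the arrays nearer to the other genotype. At an unadjusted p under 0.05, 7 of 76 subunits in Ts65Dn (6 higher and 1 lower) compare with 5.79% of all probe sets, and 10 of 76 in Ts66Yah (9 higher and 1 lower) compare with 12.1% of all probe sets. Of the 75, 42 were higher and 33 lower in Ts65Dn, with a median log2 difference of 0.01 and a range of -0.19 to 0.21. In Ts66Yah 51 were higher and 24 lower, with a median of 0.02 and a range of -0.12 to 0.27. Over all probe sets 49% were higher in Ts65Dn with a median of -0.0021, and 51.6% were higher in Ts66Yah with a median of 0.0044. Over probe sets at or above the lower quartile of mean signal, as all 76 subunits were, the median was -0.0051 in Ts65Dn and 0.0217 in Ts66Yah. Over those at or above the median of signal it was -0.0078 and 0.0259. In Ts66Yah the subunit median of 0.02 was thus close to that of probe sets of like signal.

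In Ts65Dn the 95% interval of Mrpl39 started at 0.32, and the intervals of 73 of the 75 others ended below that; those of Mrps18c and Mrps27 did not. In Ts66Yah it started at 0.22, and 57 of the 75 other intervals ended below it. All 75 intervals ended below the Mrpl39 estimate in Ts65Dn, and 72 did in Ts66Yah. The groups of all 76 subunits overlapped in both colonies. The same count over all probe sets was not made, so this overlap cannot be read as a trait of the subunits. Among euploid embryos the SD of a subunit was 0.10 (Mrpl18) to 0.45 (Mrpl20) in EupTs65Dn and 0.11 (Mrpl23) to 0.43 (Mrpl20) in EupTs66Yah, with medians of 0.20 and 0.22. Mrpl39, with 0.22 and 0.28, lay within this range.

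**Figure D2:**
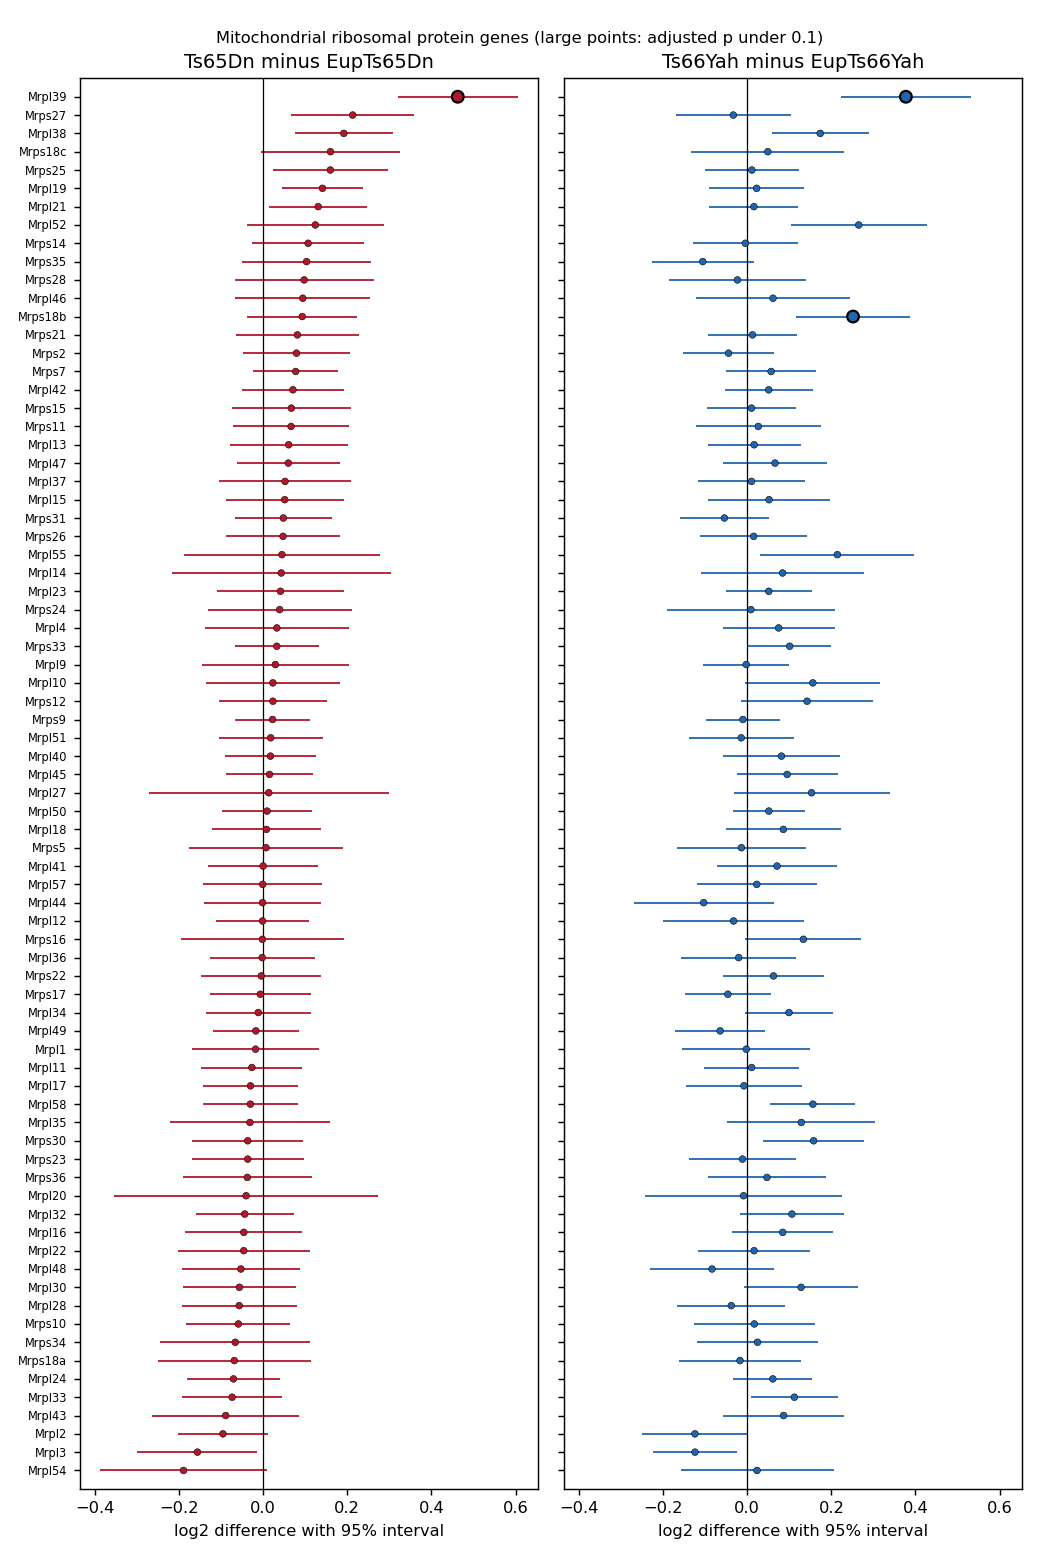
Log2 difference with its 95% interval for each of the 76 subunits, trisomic minus euploid, with Ts65Dn on the left and Ts66Yah on the right, both in the order of the Ts65Dn difference. Large points passed an adjusted p under 0.1: Mrpl39 in both models and Mrps18b in Ts66Yah; most other intervals cross 0.

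Among the large-subunit proteins outside the segment, Mrpl38 had the smallest p in Ts65Dn, and Mrpl52, Mrpl58 and Mrpl38 had the smallest in Ts66Yah. Mrpl38 is a protein specific to the mitochondrial ribosome, and its gene lies on chromosome 11. Its signal was 7.03 at the lowest, 7.39 at the median and 7.64 at the highest in Ts65Dn embryos, against 6.75, 7.19 and 7.47 in EupTs65Dn embryos. In Ts66Yah embryos it was 7.82, 8.09 and 8.30, against 7.23, 7.87 and 8.30 in EupTs66Yah embryos. The groups overlapped, with 20 of 23 Ts65Dn and 19 of 24 Ts66Yah embryos above the euploid median. The log2 difference was 0.19 in Ts65Dn (SE 0.06, limma adjusted p = 0.251) and 0.17 in Ts66Yah (SE 0.06, limma adjusted p = 0.182), and trisomic littermates were higher in 5 of 6 litters of each colony.

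Mrpl52, another mitochondria-specific protein of the large subunit, was 7.95 at the lowest, 8.33 at the median and 8.67 at the highest in Ts66Yah embryos, against 7.56, 8.11 and 8.56 in EupTs66Yah embryos. Of the Ts66Yah embryos 20 of 24 lay above the euploid median, and 4 lay above every EupTs66Yah embryo. Its difference was 0.27 in Ts66Yah (SE 0.08, limma adjusted p = 0.131) and 0.12 in Ts65Dn (SE 0.08, limma adjusted p = 0.926). Mrpl58, a peptidyl-tRNA hydrolase built into the large subunit, differed by 0.16 in Ts66Yah (limma adjusted p = 0.166) and by -0.03 in Ts65Dn. Mrpl55 differed by 0.21 in Ts66Yah (limma adjusted p = 0.327) and was higher in the trisomic littermates of all 6 litters.

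Mrpl3, the counterpart of a conserved bacterial protein near the catalytic centre, had values below 0 in both models. In Ts65Dn embryos it was 6.91 at the lowest, 7.58 at the median and 8.04 at the highest, against 7.23, 7.71 and 8.02 in EupTs65Dn embryos. In Ts66Yah embryos it was 7.97, 8.30 and 8.54, against 8.08, 8.47 and 8.70 in EupTs66Yah embryos. Trisomic littermates were lower in all 12 litters, although the groups overlapped widely. The differences were -0.16 in Ts65Dn (SE 0.07, limma adjusted p = 0.83) and -0.12 in Ts66Yah (SE 0.05, limma adjusted p = 0.297), so neither passed the threshold. Mrpl54 had the lowest difference of Ts65Dn, -0.19 (SE 0.10, limma adjusted p = 0.88), and stood at 0.02 in Ts66Yah. Mrpl19 and Mrpl21, which have bacterial counterparts, differed by 0.14 (limma adjusted p = 0.44) and 0.13 in Ts65Dn and by about 0.02 each in Ts66Yah.

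Among the small-subunit proteins, Mrps18b was called in Ts66Yah and none in Ts65Dn. It is one of several mammalian paralogues of a single bacterial small-subunit protein. Its signal was 6.96 at the lowest, 7.31 at the median and 7.60 at the highest in Ts66Yah embryos, against 6.31, 7.04 and 7.51 in EupTs66Yah embryos. In Ts65Dn embryos it was 6.41, 6.72 and 7.07, against 6.11, 6.64 and 6.95 in EupTs65Dn embryos. The groups overlapped, with 21 of 24 Ts66Yah embryos above the euploid median. The lowest EupTs66Yah values, 6.31 in replicate 17 and 6.41 in replicate 9, came from arrays of narrower spread. The difference was 0.25 in Ts66Yah (SE 0.07, limma adjusted p = 0.0741) and 0.09 in Ts65Dn (SE 0.06, limma adjusted p = 0.926), and the difference between the effects, Ts65Dn minus Ts66Yah, was -0.16 (SE 0.09, limma adjusted p = 0.754). The call was lost in 12 of 18 alternatives, with adjusted p of 0.106 to 0.377 and differences of 0.18 to 0.28. Among these were litter as a block (0.23, limma adjusted p = 0.171), EupTs66Yah replicate 16 put back (0.27, limma adjusted p = 0.178), quantile normalization (0.21, limma adjusted p = 0.166), array spread as a covariate (0.19, limma adjusted p = 0.297), and leaving out litter WT12 (0.22, limma adjusted p = 0.377), WT13, WT15, WT18 or WT19.

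Mrps27, a pentatricopeptide repeat protein of the small subunit, had the largest difference of Ts65Dn outside the segment. It was 6.26 at the lowest, 6.68 at the median and 6.99 at the highest in Ts65Dn embryos, against 5.93, 6.49 and 6.84 in EupTs65Dn embryos. In Ts66Yah embryos the median was 7.09, against 7.10 in EupTs66Yah embryos. The difference was 0.21 in Ts65Dn (SE 0.07, limma adjusted p = 0.449), with trisomic littermates higher in all 6 litters, and -0.03 in Ts66Yah, with 1 of 6 litters higher. The difference between these effects was 0.25 (SE 0.10, limma adjusted p = 0.574). Mrps25 and Mrps18c differed by 0.16 each in Ts65Dn (limma adjusted p = 0.77 and 0.874). Mrps30, named for the small subunit but placed in the large one in mammalian structures, differed by 0.16 in Ts66Yah (limma adjusted p = 0.264).

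Grouped by subunit name, 23 of 47 large-subunit genes outside the segment were higher in Ts65Dn with a median of -0.00083, and 19 of 28 small-subunit genes were higher with a median of 0.04. In Ts66Yah 34 of 47 large-subunit genes were higher with a median of 0.05, and 17 of 28 small-subunit genes with a median of 0.01. The subunit with the higher median was thus not the same in both models. Of the genes with a bacterial counterpart, 24 of 45 were higher in Ts65Dn and 29 of 45 in Ts66Yah. Of those specific to mitochondria, 18 of 29 were higher in Ts65Dn and 21 of 29 in Ts66Yah. Mrps36, since reassigned to the 2-oxoglutarate dehydrogenase complex, differed by -0.04 in Ts65Dn and 0.05 in Ts66Yah.

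The subunits on Mmu16 and Mmu17 outside the triplicated parts stayed below the threshold, apart from Mrps18b in Ts66Yah, which carries no extra part of Mmu17. Mrpl40, on the disomic part of Mmu16, differed by 0.02 in Ts65Dn (SE 0.05) and 0.08 in Ts66Yah (SE 0.07). On Mmu17, 8 subunits were measured, and the reference gene order places all of them beyond the extra segment of Ts65Dn. Mrpl18, the first of them after Pde10a, differed by 0.008 in Ts65Dn (SE 0.06, limma adjusted p = 0.999) and 0.09 in Ts66Yah (SE 0.07). In Ts65Dn Mrpl14 differed by 0.04, Mrpl28 by -0.06, Mrps18a by -0.07, Mrps10 by -0.06, Mrps34 by -0.07 and Mrpl2 by -0.10. In Ts66Yah Mrpl14 differed by 0.08, Mrpl28 by -0.04, Mrps18a by -0.02, Mrps10 by 0.02, Mrps34 by 0.02 and Mrpl2 by -0.12.

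A test of the difference between the models called 0 of 76 subunits, where 0.149% of all probe sets were called, and 5 of 76 subunits had an unadjusted p under 0.05 by limma, where 7.14% of all probe sets did. Ts65Dn minus Ts66Yah, these were 0.25 for Mrps27, 0.21 for Mrps35, -0.19 for Mrps30, -0.19 for Mrpl58 and -0.19 for Mrpl33, a protein of the large subunit. The models share no control embryos, so their effects could be set side by side. Over the 75 subunits outside the segment, 46 (61.3%) had the same sign in both models, 32 of them higher and 14 lower, and Pearson's r across genes was 0.15 (Spearman's rho 0.0513). Over the 22085 probe sets outside the segment, 53% had the same sign and r was 0.0589. Genes are not independent replicates. Of the 75 subunits, 2 had an unadjusted p under 0.05 by limma in both models, Mrpl38 and Mrpl3. Of the 22085 probe sets outside the segment, 179 did.

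**Figure D3:**
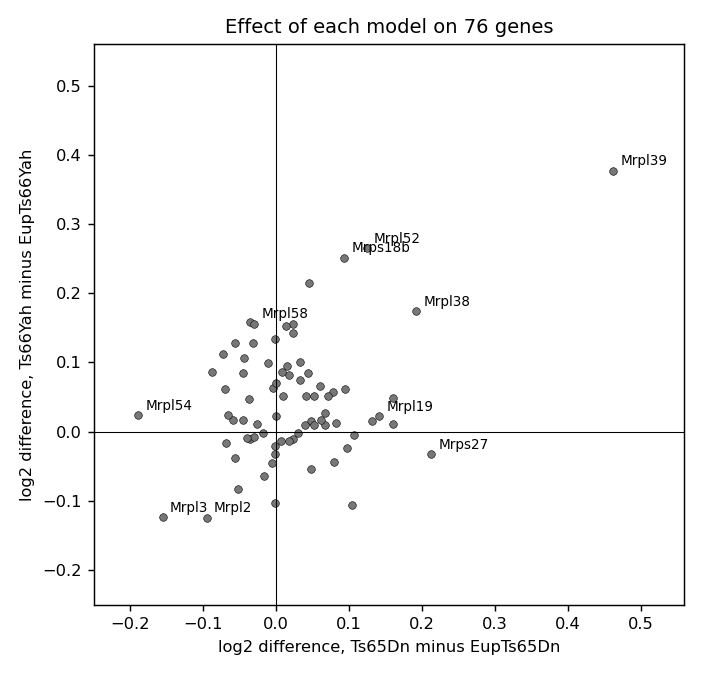
Log2 difference in Ts65Dn (Ts65Dn minus EupTs65Dn, horizontal) against that in Ts66Yah (Ts66Yah minus EupTs66Yah, vertical) for the 76 subunits, 1 point per gene. Mrpl39 stands alone at 0.46 and 0.38, Mrpl38 lies at 0.19 and 0.17, and Mrpl3 lies at -0.16 and -0.12.

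The mean of both effects was tested after these values were seen, in 1 fit of all 4 groups. By limma it called 4 of 76 subunits, all higher, where 1.03% of all probe sets were called. Mrpl39 had a mean effect of 0.42 (SE 0.05, limma adjusted p = 2.59e-09) and Mrpl38 of 0.18 (SE 0.04, limma adjusted p = 0.0035). Mrps18b had 0.17 (SE 0.05, limma adjusted p = 0.0487) and Mrpl52 had 0.19 (SE 0.06, limma adjusted p = 0.098). With litter as a block both calls were lost, at 0.16 for Mrps18b (limma adjusted p = 0.15) and 0.15 for Mrpl52 (limma adjusted p = 0.254), while Mrpl38 stayed at 0.18 (limma adjusted p = 0.00671). Leaving out each of the 12 litters in turn kept Mrpl38 between 0.16 and 0.21 with adjusted p of 0.0341 at most, while Mrps18b reached 0.219 and Mrpl52 0.269. Mrpl3 had a mean effect of -0.14 (SE 0.04, limma adjusted p = 0.107).

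**Figure D4:**
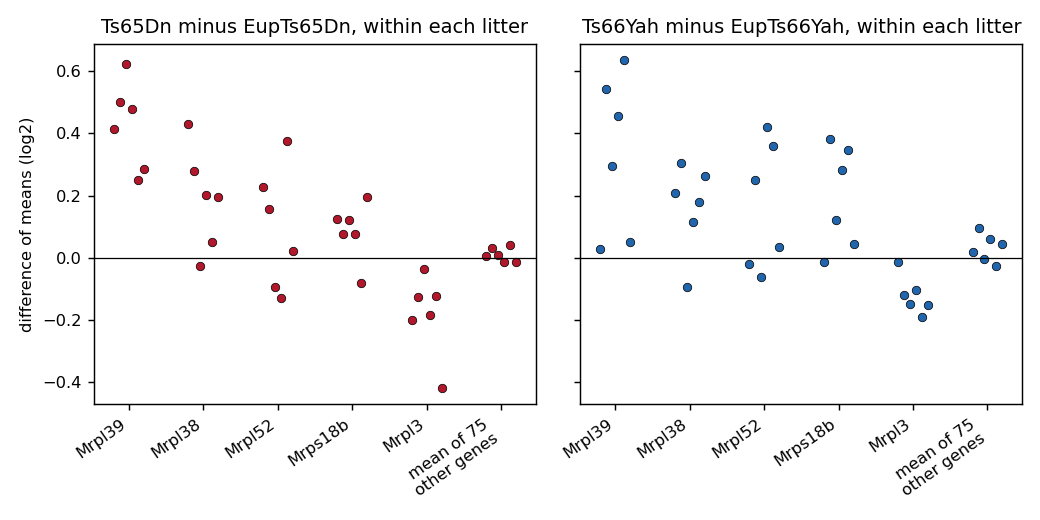
Trisomic minus euploid difference of log2 means within each litter (vertical axis), 1 point per litter, for 5 subunits and for the mean of the 75 other subunits, with the Ts65Dn colony on the left and the Ts66Yah colony on the right. Mrpl39 lies above 0 in every litter and Mrpl3 below 0 in every litter, and the mean of the 75 stays between -0.03 and 0.09.

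Promoters were searched for motifs of factors known to act on genes for mitochondrial proteins. RefSeq promoters (GRCm38.p6) were found for 67 of the 76 subunits, with 73 promoters in all; the ones for Mrpl38, Mrpl19 and Mrpl54 are among those without an entry. The NRF1-type letters GCATGCGC occurred on either strand in 8 of 73 subunit promoters (11%) and in 2.71% of all 32851 promoters of the same length. The ETS-type letters CCGGAAGT, of the class that GABPA binds, occurred in 12 of 73 (16.4%) and in 3.89% of all. The YY1-type letters AAGATGGCG occurred in 8 of 73 (11%) and in 1.40% of all, and the TATA box letters TATAAA in 5 of 73 (6.85%) and in 13.6% of all. These shares describe letters and not binding.

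Windows of subunits described above are printed because the gene for GABPA is itself on the triplicated segment. Each is 30 bases of GRCm38.p6, 5′ to 3′ on the strand of the gene, with the match to CCGGAAGT or its reverse complement in capitals.
Mrpl3, chr9:105053238-105053267, strand +: tgagaaacggaCCGGAAGTggcccggctgt
Mrps27, chr13:99344726-99344755, strand +: gtggtaggaccACTTCCGGcggaggcgggc
Mrpl52, chr14:54426899-54426928, strand +: gggccacgcccACTTCCGGttcccttgctc
Mrps18c, chr5:100798591-100798620, strand +: cgggtcacgtgACTTCCGGcccgggaagcg
Mrpl33, chr5:31613937-31613966, strand +: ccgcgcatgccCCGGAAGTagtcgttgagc
Mrpl18 also holds an ETS-type match, at -240 from the start, too near the edge of its promoter for a window of this length. The window of Mrps18b holds an NRF1-type match in place of an ETS-type one.
Mrps18b, chr17:35916645-35916674, strand -: aacggcccgacGCATGCGCactgggagcac

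Gabpa, which encodes the DNA-binding subunit of GABP, rose in both models. It was 8.32 at the lowest, 9.14 at the median and 9.35 at the highest in Ts65Dn embryos, against 8.32, 8.61 and 8.84 in EupTs65Dn embryos, with 22 of 23 Ts65Dn embryos above every EupTs65Dn embryo. It was 9.45, 9.97 and 10.3 in Ts66Yah embryos, against 9.19, 9.60 and 9.79 in EupTs66Yah embryos, with 18 of 24 Ts66Yah embryos above every EupTs66Yah embryo. The differences were 0.52 in Ts65Dn (1.43-fold, limma adjusted p = 3.56e-07) and 0.38 in Ts66Yah (1.30-fold, limma adjusted p = 0.000231). With EupTs66Yah replicate 16 put back, the Ts66Yah call was lost (0.58, limma adjusted p = 0.339).

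Subunits outside the segment were also split by the letters in their promoters, with no test. The 12 with an ETS-type match, none of them Mrpl39, had a median difference of 0.01 in Ts65Dn (7 higher and 5 lower) and 0.06 in Ts66Yah (8 higher and 4 lower). The 54 others without a match and outside the segment had medians of 0.0036 in Ts65Dn and 0.02 in Ts66Yah. For the NRF1-type letters, the 7 with a match had a median of -0.03 in Ts65Dn (3 higher and 4 lower) and 0.11 in Ts66Yah (5 higher and 2 lower), against 0.008 in Ts65Dn and 0.02 in Ts66Yah for the 59 without. For the YY1-type letters, the 8 with a match had medians of 0.05 in Ts65Dn and 0.0097 in Ts66Yah, against 0.0036 in Ts65Dn and 0.05 in Ts66Yah for the 58 without. Mrps27 and Mrpl3, which both hold an ETS-type match, had differences of opposite sign in Ts65Dn. Nrf1 itself differed by -0.12 in Ts65Dn (limma adjusted p = 0.891) and by 0.12 in Ts66Yah (limma adjusted p = 0.302). Of 12 measured regulators of nuclear mitochondrial genes, 3 were higher and 9 lower in Ts65Dn, and 5 higher and 7 lower in Ts66Yah. Gabpa alone was called in each model, where 0.491% and 0.932% of all probe sets were called. By limma, 2 regulators in Ts65Dn and 4 in Ts66Yah had an unadjusted p under 0.05, where 5.79% and 12.1% of all probe sets did.

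The other genes of mitochondrial translation were taken from lists of ribosome assembly, translation factors, aminoacyl-tRNA synthetases, and mitochondrial DNA and RNA maintenance. Among 30 assembly genes 1 was called in Ts65Dn, Tfb1m, and 0 in Ts66Yah. Of these genes 2 in Ts65Dn and 3 in Ts66Yah had an unadjusted p under 0.05 by limma. Tfb1m encodes the methyltransferase that modifies the small mitochondrial ribosomal RNA, a step in building the small subunit, and its gene lies on Mmu17 before Arid1b, in the extra segment that Ts65Dn carries and Ts66Yah lacks. Of the 4 measured ribosomal proteins with other symbols 0 were called and 0 had an unadjusted p under 0.05 in either model by limma, and Dap3, of the small subunit, differed by 0.08 in Ts65Dn and 0.02 in Ts66Yah. Of 13 translation factors, 21 synthetases and 16 maintenance genes, 0 were called in either model. At an unadjusted p under 0.05, limma gave 0 factors, 2 synthetases and 0 maintenance genes in Ts65Dn, and 1, 1 and 0 in Ts66Yah. Over all probe sets the called shares were 0.491% in Ts65Dn and 0.932% in Ts66Yah, and the shares with an unadjusted p under 0.05 were 5.79% and 12.1%. The unadjusted counts of these 4 lists thus lay below the background in Ts66Yah. In Ts65Dn those of the assembly genes (2 of 30, Tfb1m among them) and the synthetases (2 of 21) lay above it. Counts of 2 are too small to set these lists apart from the background.

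Tfb1m was 6.59 at the lowest, 7.06 at the median and 7.27 at the highest in Ts65Dn embryos, against 5.71, 6.45 and 6.97 in EupTs65Dn embryos. It was 6.95, 7.30 and 7.72 in Ts66Yah embryos, against 6.59, 7.14 and 7.91 in EupTs66Yah embryos. Of the Ts65Dn embryos 13 of 23 lay above every EupTs65Dn embryo, and of the Ts66Yah embryos 0 of 24 did so in their colony. The difference was 0.60 in Ts65Dn (SE 0.08, 1.51-fold, limma adjusted p = 3.29e-06) and 0.16 in Ts66Yah (SE 0.07, limma adjusted p = 0.377).

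**Figure D5:**
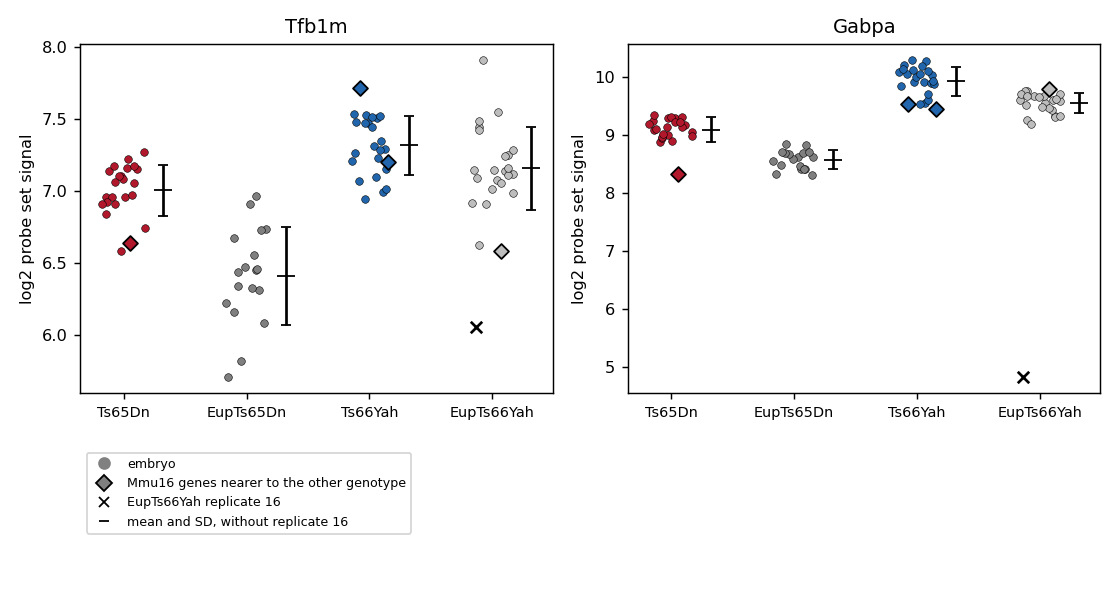
Log2 probe set signal of Tfb1m (left) and Gabpa (right) in each embryo of the 4 groups, with mean and SD and the same marks as in the plot of Mrpl39 by embryo. Tfb1m averages 7.01 in Ts65Dn against 6.41 in EupTs65Dn and 7.32 in Ts66Yah against 7.16 in EupTs66Yah, while Gabpa is higher in both trisomic groups.

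The smallest p of each remaining list belonged in Ts65Dn to Taco1, an activator of cytochrome oxidase translation (0.11), Gatb, of the glutaminyl-tRNA amidotransferase (-0.33, SE 0.13, limma adjusted p = 0.605), and Polg, the mitochondrial DNA polymerase (0.17). In Ts66Yah it belonged to Oxa1l, which inserts new proteins into the inner membrane (0.11), Iars2, the isoleucyl-tRNA synthetase (0.14), and Prorp, the protein-only RNase P (0.19). None of these passed the threshold in its model. Of the cell type markers, Vim, 1 of 8 of the radial glia list (0.19, limma adjusted p = 0.0853), Aurkb, 1 of 7 of the proliferating cell list (0.23, limma adjusted p = 0.0923), and Mbp, 1 of 5 of the oligodendrocyte list (0.62, limma adjusted p = 0.0503), rose in Ts66Yah. In Ts66Yah 7 of 8 radial glia, 5 of 7 proliferating cell and 4 of 5 oligodendrocyte markers were higher. The lists of cortical excitatory and GABAergic neurons, astrocytes, microglia, endothelium, pericytes and meninges, erythroid cells and choroid plexus had 0 called in Ts66Yah. Of these, 5 of 5 astrocyte, 6 of 6 pericyte and meninges, 4 of 5 endothelium and 3 of 4 choroid plexus markers were higher in Ts66Yah. So were 4 of 7 GABAergic, 3 of 7 cortical excitatory, 2 of 6 microglia and 1 of 2 erythroid markers. Over all probe sets 0.932% were called in Ts66Yah. In Ts65Dn 0 markers of any list were called, and 5 of 8 radial glia, 2 of 7 proliferating cell and 4 of 5 oligodendrocyte markers were higher. Over embryos, the radial glia list mean was 8.86 to 9.34 in Ts66Yah and 8.47 to 9.19 in EupTs66Yah, the proliferating cell list mean was 7.32 to 7.80 in Ts66Yah and 7.20 to 7.93 in EupTs66Yah, and the oligodendrocyte list mean was 6.03 to 7.09 in Ts66Yah and 5.99 to 7.00 in EupTs66Yah. Their part in the subunit values of Ts66Yah was not tested.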

How the data were processed

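The authors deposited log2 probe set signals summarised by RMA, per the submitters' processing notes; RMA's version and settings, and the build of the array's annotation, were not given in the sources used here. Of 22206 probe sets, 19572 carried 1 symbol and 2634 had no name in the table used. No signal filter was applied, and all 76 subunits lay at or above the lower quartile of mean signal in both colonies. Each trisomic genotype was compared with its euploid littermates by limma 3.58.1 in R 4.3.3 (lmFit and eBayes with default settings, two-sided) on all probe sets, with Benjamini-Hochberg adjustment and a threshold of 0.1; the difference and the mean of the effects came from 1 fit of all 88 arrays used. On simulated data with known changes the fit was checked. Figures used matplotlib 3.10.9 in Python 3.11.15. Embryos share dams, but the main fits held no litter term and took embryos as independent, so litter was tried as a block. Embryo numbers pair no samples across groups, and the p-values rest on the spread between embryos.

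The members, lists and tests were chosen with earlier results of these data known, and leaving out EupTs66Yah replicate 16 rests on those too. Named were Mrpl39, subunits on Mmu16 and Mmu17, those past the threshold, and the 5 highest and 5 lowest differences per comparison, of which the text gives a part. Of each list, genes past the threshold or else the one with the smallest p were named, as were Gabpa and Nrf1 always. Jam2, Atp5j, Mrpl21 and the cell type markers past the threshold were named outside this rule, after their values were seen. Alternatives were all arrays, litter as a block, labelled sex, an unmoderated test, other thresholds and signal filters, quantile normalization, median centring, array weights, array spread as a covariate, leaving out discordant or narrower arrays, and leaving out each litter.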

Additional observations from a re-analysis of the deposited data

Results flagged for a closer look

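Tfb1m, of the ribosome assembly list, was noted because its effect differed between the models. The difference of effects, Ts65Dn minus Ts66Yah, was 0.438 on the log2 scale (SE 0.11, limma adjusted p = 0.0882), with an effect of 0.60 in Ts65Dn and 0.16 in Ts66Yah. Its side of the threshold changed with the arrays used: it was 0.392 with EupTs66Yah replicate 16 put back (limma adjusted p = 0.65), 0.413 without the narrower EupTs66Yah arrays (limma adjusted p = 0.144), and 0.345 to 0.485 with each litter left out in turn, with adjusted p of 0.0519 to 0.431 (the highest without litter TS125). The Ts65Dn effect itself stayed at 0.50 to 0.64 with each litter of that colony left out, with adjusted p of 0.000388 at most. The gene's place on the part of Mmu17 that Ts65Dn carries and Ts66Yah lacks is known from gene order; copy number was not measured here.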

How the results depend on the processing

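In Ts65Dn 1 subunit, Mrpl39, was called in every alternative run. In Ts66Yah the count of 2 called subunits was 1 at an adjusted p under 0.05, with litter as a block (replicate block), after quantile normalization or median centring, with array weights, with array spread as a covariate, and without the narrower EupTs66Yah arrays. It was 0 with EupTs66Yah replicate 16 put back, 4 with probe sets filtered at the median of signal, and 0 to 2 with each litter left out in turn. Mrpl39 in Ts66Yah was 0.519 with replicate 16 put back (limma adjusted p = 0.253) and 0.306 (without litter WT18, limma adjusted p = 0.119) to 0.455 with each litter left out, and its difference between the models turned to -0.056 with replicate 16. With that array the median of the 75 other subunits in Ts66Yah was 0.118 and that of all probe sets 0.0433. With litter as a block Mrpl39 was 0.427 in Ts65Dn and 0.387 in Ts66Yah. The count for the mean of both effects was 2 to 5 with each litter left out. The cause of these changes was not tested.

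Values near 0 changed sign. In Ts66Yah with replicate 16 put back, Mrpl48 was 0.0263, Mrpl28 0.0458 and Mrps18a 0.0755, and the Gabpa difference between models was -0.0583. Mrps18a was 0.0118 with the block, 0.0288 with array spread and 0.0103 without the narrower arrays. Mrps10 was -0.0199 after quantile normalization, -0.0269 after centring, -0.0806 with array spread and -0.0562 without the narrower arrays. Mrps34 was -0.0193 after either normalization, and Mrpl28 0.00479 with array spread. Without the discordant arrays Mrpl18 in Ts65Dn was -0.00827. With each litter left out in turn, Ts66Yah values spanned -0.0503 to 0.0374 for Mrps18a, -0.00379 to 0.0833 for Mrps34, -0.231 to 0.01 for Mrpl44, -0.0838 to 0.0368 for Mrpl28 and -0.045 to 0.0565 for Mrps10, and Ts65Dn values -0.0414 to 0.0767 for Mrpl18, -0.00285 to 0.1 for Mrpl14 and -0.101 to 0.00379 for Mrps34. Of the 76 subunits 75 lay above the median signal in the Ts65Dn colony and 73 in the Ts66Yah colony.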
